A study of Homo sapiens with 30 samples.

Results

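CYC065, an inhibitor of the kinases CDK9 and CDK2, was compared with its vehicle DMSO in the SH-EP line that carries the single MYCN mutant S62A. SH-EP is an established neuroblastoma (NB) cell line of mesenchymal identity, and S62A replaces a serine of MYCN with an alanine that cannot be phosphorylated. The comparison rests on 6 of the 30 RNA-Seq libraries, chosen by the line and treatment in their labels, 3 from cells given DMSO and 3 from cells given 1 μM CYC065, both for 6 hours. All 6 carry MYCN S62A under an exogenous promoter, so the transgene lacks the regulation of the native MYCN locus. Nothing states whether the line is 1 clone or whether the libraries come from separate cultures. The p values therefore measure the spread between libraries, which may be technical. The WT, T58A, and T58A S62A MYCN lines, given the same DMSO and the same CYC065 dose and time, are compared with it at the end, with 18 libraries. They and the parental SH-EP line also entered the fit over all 30 libraries, and so bear on the SE, the p values, the filter, and the spike-in scaling used for the S62A line.

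CDK9 is the kinase of P-TEFb, which releases RNA polymerase II from its pause near the start of genes, and most transcripts need it. Transcripts that decay fast are lost soonest when it is inhibited, whereas stable transcripts persist. CDK2 acts with cyclins E and A in the passage into and through S phase. Phosphorylation of MYCN at serine 62 is the step before phosphorylation of threonine 58, which marks the protein for FBXW7 and the proteasome.

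The table gives FPKM, a measure of abundance per length of transcript and per sequenced fragment, for 26228 genes and for 92 ERCC spike-ins, synthetic RNAs that the authors added in proportion to cell number. A level was described on both of 2 scales: FPKM as deposited, which compares a transcript with the rest of its library, and FPKM scaled to the spike-ins, which compares it with the number of cells. Changes are differences of log2(FPKM + 0.1) between the group means, CYC065 minus DMSO, with limma's standard error (SE), and a gene is said to have risen or fallen where limma's Benjamini-Hochberg adjusted p was under 0.05. Tests covered 11575 genes, those whose FPKM averaged 1 or more in the series. Libraries are cited by the numbers 0, 1, and 2 of their columns in the table.

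The spike-ins took 8.07% to 9.36% of the summed FPKM in the DMSO libraries and 13.9% to 15.2% in the CYC065 libraries. Of the 55 spike-ins that averaged 1 FPKM or more, all 55 were higher with CYC065 on the deposited scale, by a median of 1.54 in log2. The scale factors were accordingly 0.722 to 0.938 in DMSO and 0.260 to 0.316 in CYC065, with no overlap. Read counts are not in the table, but its lowest values give the CYC065 libraries 0.380 to 0.532 of the depth of the deepest DMSO library, and the other DMSO libraries 0.599 and 0.762. Correlations of log2 levels were 0.926 to 0.949 within groups and 0.848 to 0.879 between them, and no pair was identical. The summed level of 6 markers of mesenchymal NB lines was 1848 to 1915 FPKM in DMSO and 2826 to 2897 in CYC065. Most of it was VIM, at 1498 to 1557 and 2405 to 2477 FPKM. As deposited 4 of the 6 rose, and PRRX1 fell from 55.5 to 57.1 FPKM down to 31.3 to 37.7. On the spike-in scale all 6 fell. Beside this, 38.8% of all tested genes rose and 34.6% fell as deposited, and 90.2% fell on the spike-in scale. Of 6 adrenergic NB markers, 5 were listed at 0 in all 6 libraries. From a list of 13 adrenergic transcription factors, however, 7 passed the filter. In DMSO these included TBX2 at 66.7 to 74.9 FPKM, HAND2 at 44.1 to 48.3, and GATA2 at 18.3 to 19.8. Leukocyte markers summed to 6.14 to 7.26 FPKM in DMSO and 13.1 to 14.4 in CYC065, with 1 of 5 at or above 1 FPKM, and epithelial markers to 2.91 to 3.57 and 6.79 to 9.65, with 1 of 5. The part of these differences in the results was not tested.

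**Figure D1:**
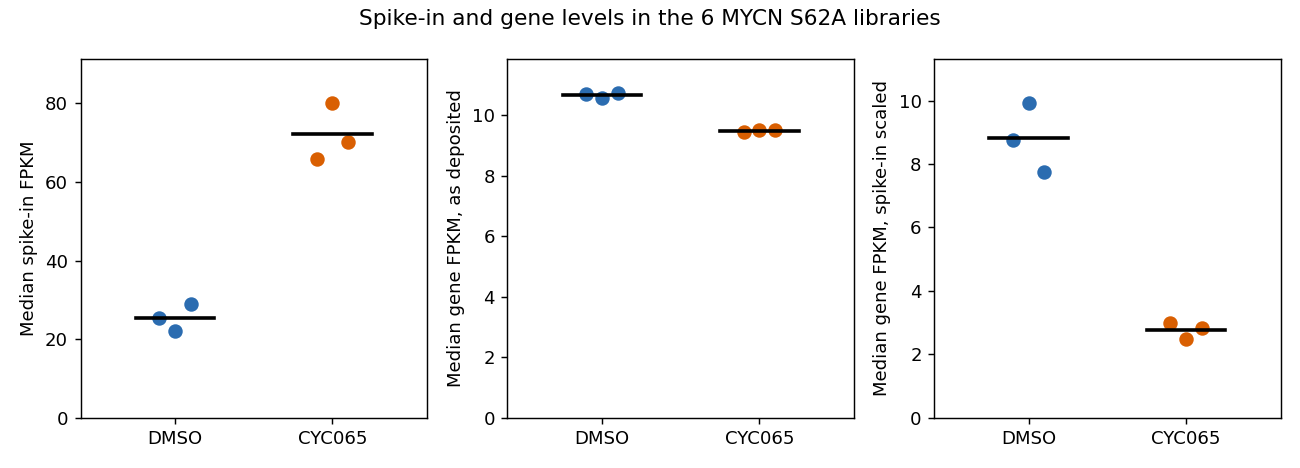
Median FPKM of the 55 spike-ins (left), median FPKM of the 11575 tested genes as deposited (middle), and the same after spike-in scaling (right) in each of the 3 DMSO and 3 CYC065 libraries of the MYCN S62A line. Points are libraries and bars are group means. The deposited gene median was similar in both groups, while the spike-in median was higher in every CYC065 library and the scaled gene median lower.

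Per cell, most transcripts were lower with CYC065. On the spike-in scale 10439 genes fell, 90.2% of those tested, and 112 rose, 0.968%, or 69 when scaled only to the spike-ins of at least 50 FPKM. The median change was −1.35 in log2, with an SD of 0.138 over the 3 CYC065 libraries, each taken against the DMSO mean. On the deposited scale the same libraries gave 4494 genes higher, 38.8%, and 4003 lower, 34.6%, around a median change of 0.07. In bulk libraries, fewer cells and less RNA per cell cannot be told apart except as far as the spike-ins were added by cell number.

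Both scales together sorted the genes. All 112 genes that rose on the spike-in scale also rose as deposited, and all 4003 that fell as deposited also fell on the spike-in scale. Between them, 3877 genes rose as deposited and fell on the spike-in scale, so that they gained share in the library while their level per cell was lower. A further 2559 genes did not pass as deposited and fell on the spike-in scale. Of the rest, 505 rose as deposited and did not pass on the spike-in scale, and 519 passed on neither. Scaling multiplies every gene of a library by the same factor, and every CYC065 factor was below every DMSO factor. That the 112 and the 4003 genes kept their direction on both scales therefore follows largely from the scaling. A call on both scales is no separate support for a change.

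**Figure D2:**
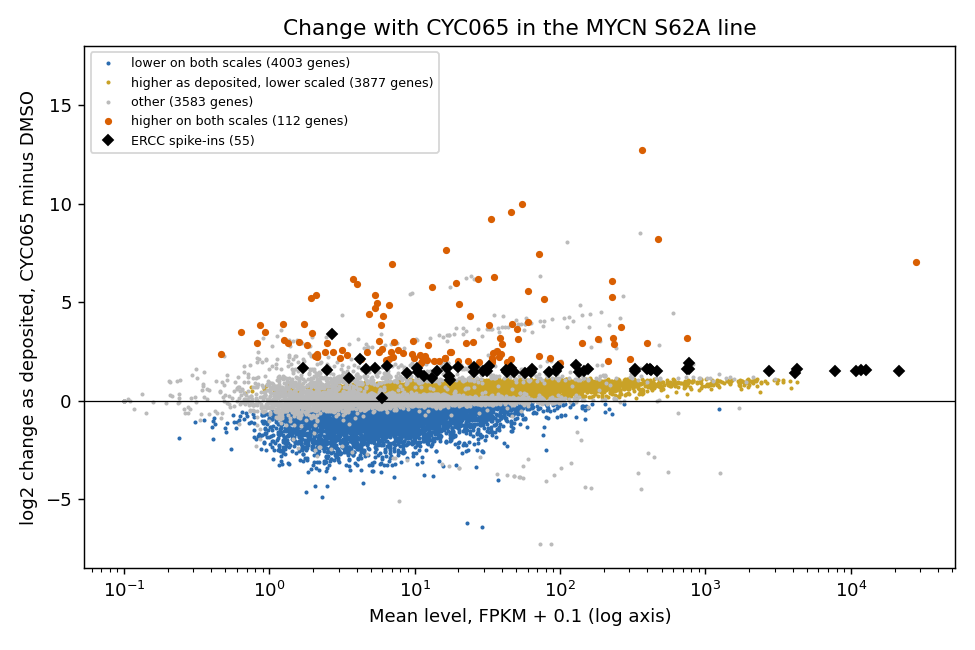
log2 change as deposited, CYC065 minus DMSO, against the mean level of each of the 11575 tested genes in the MYCN S62A line (log axis, FPKM + 0.1). Black diamonds are the 55 spike-ins, at a median of 1.54. The 112 genes that rose on both scales lie above most spike-ins, and the 4003 that fell on both lie below 0.

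Of the 112 genes that rose on both scales, 14 were in a list of immediate early genes, the short genes with unstable transcripts that cells switch on within minutes of a stimulus. Promoters are shown first, as the 100 bases before the transcription start on the gene's strand, from RefSeq (GRCh38.p14), for 5 genes that rose on both scales and 2 of the 10 with the largest falls per cell. Capitals mark TATAA, the core of a TATA box, searched on both strands together with the E-box CACGTG, to which MYC proteins bind. The E-box is in none of these windows.

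JUNB, chr19:12791386-12791485, plus strand: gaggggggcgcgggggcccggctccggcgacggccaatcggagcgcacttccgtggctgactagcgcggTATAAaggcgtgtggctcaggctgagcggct
CTGF, chr6:131951373-131951472, minus strand: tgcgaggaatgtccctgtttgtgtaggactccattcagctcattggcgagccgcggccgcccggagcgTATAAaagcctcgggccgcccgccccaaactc
GDF15, chr19:18386058-18386157, plus strand: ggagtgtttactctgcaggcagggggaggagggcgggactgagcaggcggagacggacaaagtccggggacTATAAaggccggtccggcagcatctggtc
CXCL8, chr4:73740469-73740568, plus strand: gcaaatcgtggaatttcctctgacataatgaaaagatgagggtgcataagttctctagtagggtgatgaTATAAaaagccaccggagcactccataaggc
IER2, chr19:13150311-13150410, plus strand: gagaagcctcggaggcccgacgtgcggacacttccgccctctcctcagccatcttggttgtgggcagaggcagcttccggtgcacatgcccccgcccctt
TNFRSF1A, chr12:6342077-6342176, minus strand: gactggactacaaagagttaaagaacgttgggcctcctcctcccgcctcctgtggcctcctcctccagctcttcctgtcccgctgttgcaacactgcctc
AXIN1, chr16:352724-352823, minus strand: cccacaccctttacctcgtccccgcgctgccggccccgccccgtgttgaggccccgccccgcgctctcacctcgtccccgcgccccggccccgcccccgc

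The first base of TATAA lies at −31 in JUNB, −32 in CTGF, −29 in GDF15, and −31 in CXCL8, counted back from the start. In the full RefSeq windows, 250 bases before to 50 after the start, TATAA on either strand was in 23 of the 72 genes that rose on both scales and matched a promoter, 31.9%. It was in 10.8% of the 9199 tested genes with a promoter and in 21.1% of all 27305 promoters. Among the 10 genes with the largest falls, of which the 2 shown lack it, TATAA was in 3, so the windows shown do not stand for a difference between risers and fallers. CACGTG was in 12.5% of the risers with a promoter, 10.6% of the tested genes, and 7.43% of all promoters. The letters are a description of the windows and no site was tested.

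Of 29 tested AP-1 and immediate early genes, 24 rose and 3 fell as deposited, and 14 rose and 9 fell on the spike-in scale. Their median changes were 1.62 and 0.12, against 0.07 and −1.35 over all tested genes. As deposited 38.8% of all tested genes rose and 34.6% fell, and on the spike-in scale 0.968% and 90.2%. IER3, which restrains apoptosis (chromosome 6, 30710976 to 30712325 of GRCh37, minus strand, 1 exon), stood at 1.57, 0.263, and 1.03 FPKM in DMSO and at 64.1, 67.3, and 74.5 in CYC065. Its change was 6.28 ± 0.35 (SE) as deposited and 4.75 ± 0.42 on the spike-in scale. JUNB, an AP-1 subunit (chromosome 19, 12902300 to 12904129, plus strand, 1 exon), stood at 38.6, 35.5, and 36.0 FPKM in DMSO and at 514, 461, and 481 in CYC065. Every treated library of both genes lay above every DMSO library.

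ATF3, a stress-induced partner of JUN, rose by 4.02 ± 0.11 as deposited and 2.51 ± 0.22 per cell. EGR1, a zinc finger factor induced by serum, rose from 59.7, 53.2, and 55.6 FPKM to 431, 401, and 416, by 2.89 ± 0.06 as deposited and 1.39 ± 0.20 per cell. IER2 rose by 3.17 and 1.67, and BTG2, an antiproliferative target of p53, by 3.62 and 2.12. FOS, the classic serum response gene, rose by 1.44 ± 0.09 as deposited, from 58.5 to 70.8 FPKM up to 166 to 174. On the spike-in scale its change was −0.06 ± 0.21 and did not pass. KLF10 rose by 1.94 as deposited and by 0.45 per cell, a call that was lost in 3 of the 6 fits without 1 library, those without DMSO library 2 or CYC065 library 0 or 2 (adjusted p up to 0.118), and with the spike-ins of at least 50 FPKM (0.594) or their sum (0.0568). The 3 members that fell as deposited were SRF (−0.53 ± 0.08), the factor that drives many of these genes, and the mRNA decay regulators ZFP36L2 (−0.29) and BTG1 (−0.24). The calls of ZFP36L2 and BTG1 were lost with each library centred on its median (adjusted p = 0.193 and 0.416), and that of ZFP36L2 also in a fit of the 6 S62A libraries alone (0.0749).

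Of 18 tested members of the YAP and TEAD pathway, 7 rose and 7 fell as deposited, near the 38.8% and 34.6% of all tested genes. Per cell 2 rose and 14 fell, beside 0.968% and 90.2%. CYR61, a secreted matrix protein, rose from 149 to 152 FPKM in DMSO to 1334 to 1354 in CYC065, by 3.16 ± 0.05 as deposited and 1.66 ± 0.19 per cell. The related CTGF rose from 114 to 116 FPKM up to 486 to 497, by 2.10 ± 0.05 and 0.59 ± 0.20. With the spike-ins of at least 50 FPKM the change of CTGF per cell was 0.29 and did not pass (adjusted p = 0.312). ANKRD1 rose by 1.26 as deposited, and its change per cell of −0.24 did not pass, but did with the spike-ins of at least 50 FPKM (adjusted p = 0.0385). The targets AMOTL1 (−0.75), AJUBA (−0.38), and TGFB2 (−0.39) fell as deposited, and the components YAP1, TEAD1, TEAD2, and LATS1 did not pass. The DNA-binding partner TEAD4 fell from 16.2, 18.5, and 19.3 FPKM to 5.88, 4.85, and 5.0, by −1.76 ± 0.14 as deposited, and the kinase LATS2, which restrains YAP, by −1.45 ± 0.11.

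MYCN itself (chromosome 2, 16080672 to 16087129, plus strand, protein coding) was at 5.08, 6.59, and 5.51 FPKM in DMSO and at 6.89, 5.79, and 7.23 in CYC065. The groups overlapped, and the change as deposited, 0.21 ± 0.17, did not pass, although 0.38 with each library centred on its median did (adjusted p = 0.0461). Per cell it fell by 1.24 on the log2 scale (SE 0.22), near the median of all tested genes. The paper found no sign of MYCN expression in SH-EP cells without the transgene, but FPKM per gene cannot separate exogenous from native transcripts. The endogenous paralog MYC (chromosome 8, 128747680 to 128755197, plus strand) moved otherwise, from 1.85, 1.01, and 1.93 FPKM to 13.1, 12.6, and 12.1. It rose by 2.96 ± 0.17 as deposited and 1.46 ± 0.22 per cell, with no overlap between groups.

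Among 12 tested genes of the MYC, MAX, and MXD network, 3 rose and 7 fell as deposited, and 1 rose and 9 fell per cell. All tested genes gave 38.8% and 34.6% as deposited, and 0.968% and 90.2% per cell. Beside MYC, the risers as deposited were MXD1, a competitor of MYC for MAX (1.59 ± 0.16), and ZBTB17, the MIZ1 factor through which MYC represses genes (1.44 ± 0.10), and neither passed per cell. MGA, a large MAX partner that opposes MYC, fell from 7.56, 8.21, and 7.30 FPKM to 1.62, 1.76, and 1.34, by −2.22 ± 0.15 as deposited. Of 9 regulators of MYCN turnover, 2 rose and 6 fell as deposited and 8 fell per cell. AXIN1, a scaffold for GSK3 (chromosome 16, 337440 to 402723, minus strand), fell from 9.82, 7.89, and 10.3 FPKM to 0.572, 0.706, and 0.799, by −3.58 ± 0.25. AURKA, a kinase that stabilizes MYCN, fell from 134 to 139 FPKM down to 20.9 to 27.1, by −2.48 ± 0.08. GSK3B, the kinase of threonine 58, fell by −1.29 ± 0.11, whereas FBXW7, the ubiquitin ligase subunit that recognizes phosphorylated MYCN, rose by 1.80 ± 0.13 as deposited and did not pass per cell (0.32 ± 0.23).

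**Figure D3:**
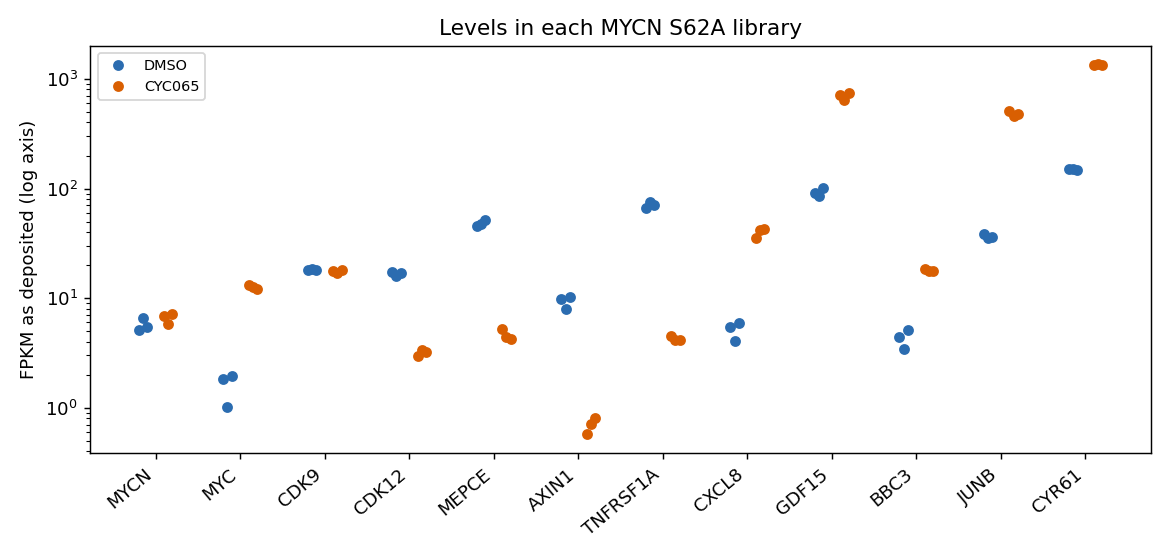
FPKM as deposited (log axis) of 12 genes in each MYCN S62A library, DMSO in blue and CYC065 in orange, 3 points a group. MYCN and CDK9 overlapped between groups, CDK12, MEPCE, AXIN1, and TNFRSF1A were lower in every treated library, and MYC, CXCL8, GDF15, BBC3, JUNB, and CYR61 were higher.

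CDK9, a target of the drug, was at 18.1, 18.3, and 18.1 FPKM in DMSO and at 17.8, 17.0, and 18.1 in CYC065, a change of −0.04 ± 0.09 that did not pass as deposited and of −1.53 ± 0.20 that passed per cell. CDK2 rose by 0.28 ± 0.07 as deposited and fell by 1.22 on the log2 scale per cell. Of 29 tested P-TEFb and elongation regulators, 10 rose and 14 fell as deposited, and 24 fell and 0 rose per cell, beside 38.8% and 34.6% of all tested genes as deposited and 90.2% lower per cell. The risers as deposited included EAF1, an ELL cofactor (1.59 ± 0.07) and CCNT1, the cyclin of CDK9 (1.2 ± 0.09). On the spike-in scale their changes were 0.09 and −0.29 and did not pass, against the all-gene median of −1.35. With the spike-ins of at least 50 FPKM CCNT1 passed as lower (adjusted p = 0.0168).

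The largest fall of that list was that of MEPCE, the capping enzyme that protects 7SK RNA, which holds P-TEFb inactive (chromosome 7, 100025945 to 100031749, plus strand). It was at 45.7, 47.1, and 51.3 FPKM in DMSO and at 5.18, 4.46, and 4.27 in CYC065, a change of −3.35 ± 0.12 as deposited and −4.78 ± 0.22 per cell. AFF1, a scaffold of the super elongation complex, fell by −1.77 ± 0.18 as deposited. HEXIM1, the inhibitor of P-TEFb within the 7SK particle, changed by 0.04 ± 0.10 as deposited and did not pass.

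Of 9 members of a list of the CDK7, CDK12, and CDK13 complexes, 4 rose and 4 fell as deposited, and 9 fell per cell. The shares of all tested genes were 38.8%, 34.6%, and 90.2%. CDK12, a kinase that sustains elongation of long genes (chromosome 17, 37617739 to 37723812, plus strand), went from 17.4, 16.1, and 17.1 FPKM to 2.95, 3.36, and 3.24, by −2.37 ± 0.08 as deposited. CDK8 of the Mediator kinase module fell by −1.68 ± 0.18 and CDK7 of TFIIH by −1.48 ± 0.11, while CCNK, the cyclin of CDK12, rose by 0.89 ± 0.05 as deposited and fell per cell by 0.60 on the log2 scale. Of 12 RNA polymerase II subunits, 10 rose as deposited, and the largest subunit POLR2A was 1 of the 2 that fell (−0.70 ± 0.06).

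Of 27 tested CDK2, cyclin, and G1/S genes, 9 rose and 13 fell as deposited and 26 fell per cell, beside 38.8%, 34.6%, and 90.2% of all tested genes. E2F5, a repressive E2F, fell from 11, 10.2, and 11.9 FPKM to 1.16, 0.845, and 1.21, by −3.26 ± 0.23. The CDK2 partner CCNE2 fell by −2.53 ± 0.14 and E2F8 by −1.98 ± 0.15. The CDK2 inhibitor CDKN1A, or p21, rose from 85.5 to 88.5 FPKM up to 286 to 320, by 1.80 ± 0.05 as deposited, and its change per cell of 0.30 ± 0.18 did not pass. Of 29 mitotic genes, 19 fell and 6 rose as deposited and all 29 fell per cell, with CENPA, the centromeric histone, at −2.51 ± 0.17 and the checkpoint kinase TTK at −1.99 ± 0.10. Among 35 replication genes the split as deposited was near that of all tested genes, with 16 higher and 14 lower, and GINS1 of the replicative helicase fell by −1.90 ± 0.11.

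Of 25 homologous recombination and damage response genes, 13 fell and 4 rose as deposited and 25 fell per cell. The shares over all tested genes were 34.6%, 38.8%, and 90.2%. BRCA2, a mediator of strand exchange, fell from 4.90, 4.18, and 4.21 FPKM to 0.937, 0.634, and 0.685, by −2.42 ± 0.16. The helicase BLM fell by −2.30 ± 0.18 and PALB2, the partner of BRCA2, by −2.16 ± 0.16. FANCD2 of the Fanconi pathway rose by 0.44 ± 0.08 as deposited and fell per cell by 1.04 on the log2 scale.

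Genes of apoptosis moved in both directions, as did all tested genes. Of the latter, 38.8% rose and 34.6% fell as deposited, and 0.968% rose and 90.2% fell per cell. Of 16 tested BCL2 family and IAP genes, 8 rose and 6 fell as deposited, and 1 rose and 14 fell per cell. The riser on both scales was BBC3, the proapoptotic PUMA, at 4.42, 3.44, and 5.14 FPKM in DMSO and 18.3, 17.8, and 17.6 in CYC065. Its change was 2.04 ± 0.19 as deposited and 0.55 ± 0.24 per cell, and the call per cell was lost without DMSO library 0 or 1 or CYC065 library 0 or 2 (adjusted p up to 0.0967), with no filter (0.0525), and with the spike-ins of at least 50 FPKM (0.416) or their sum (0.0671). PMAIP1, or NOXA, rose by 1.58 ± 0.08 as deposited and did not pass per cell (0.08). MCL1, an antiapoptotic protein with a short-lived transcript, rose from 85.9, 90.9, and 81.0 FPKM to 120, 127, and 123, by 0.52 ± 0.06 as deposited, and fell per cell by 0.98 on the log2 scale (SE 0.19). The effector BAK1 (−1.17 ± 0.21) and the BH3-only BCL2L11 (−1.14 ± 0.32) fell as deposited. So did the antiapoptotic BCL2 (−1.47), the largest fall of the list, CFLAR (−0.85), XIAP (−0.75), and BCL2L1 (−0.46).

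Of 28 genes of p53 and its targets, 20 rose and 4 fell as deposited, and 7 rose and 16 fell per cell. Their median changes were 0.70 and −0.78, against 0.07 and −1.35 over all tested genes. The shares of all tested genes were 38.8% and 34.6% as deposited, and 0.968% and 90.2% per cell. GDF15, a secreted stress cytokine, rose from 91.5, 85.9, and 100.1 FPKM to 706, 637, and 749, by 2.91 ± 0.10 as deposited and 1.41 ± 0.21 per cell. MDM2, the ligase of p53, rose by 1.15 ± 0.09 as deposited and did not pass per cell (−0.34 ± 0.20), though it passed as lower in the fit of the 6 libraries alone (adjusted p = 0.033) and with the spike-ins of at least 50 FPKM (0.0206), and POLH, a lesion bypass polymerase, fell by −1.35 ± 0.10. BTG2 and BBC3 belong to this list too.

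Of 18 tested genes of NF-kB subunits, feedback, and cytokines, 11 rose and 4 fell as deposited, and 6 rose and 6 fell per cell. The risers include TNF and CXCL3, at most 0.0927 and 0.172 FPKM in DMSO. Those DMSO libraries could not bring either gene past the filter, so the counts of risers are partly set by it. CXCL2 rose on both scales, but its call per cell was lost in 5 of the 6 fits without 1 library. Over all tested genes the shares were 38.8% and 34.6% as deposited, and 0.968% and 90.2% per cell. The chemokine CXCL8 rose from 5.43, 4.09, and 5.92 FPKM to 35.7, 41.4, and 43.0, by 2.95 ± 0.15 as deposited and 1.45 ± 0.22 per cell. TNFAIP3, or A20, a deubiquitinase that turns NF-kB off, rose by 2.91 ± 0.20 and 1.44 ± 0.29, and NFKBIA, the IκBα inhibitor, by 1.29 as deposited without passing per cell. Of the 5 subunit genes, NFKB1 (0.87) and REL (0.92) rose as deposited, and NFKB2 (−0.46), RELA, and RELB fell. The inhibitor NFKBIE fell (−0.44), and IL6, CCL2, and ICAM1 did not pass. RELA, or p65, fell from 25, 22.4, and 25.2 FPKM to 9.19, 9.42, and 10.6, by −1.30 ± 0.10 as deposited, and RELB by −1.41 ± 0.19.

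Among genes past the threshold whose groups did not overlap and averaged 5 FPKM or more in DMSO, the largest fall per cell was that of TNFRSF1A, the main receptor of TNF (chromosome 12, 6437923 to 6451280, minus strand). It was at 66.6, 76.0, and 70.2 FPKM in DMSO and at 4.5, 4.15, and 4.17 in CYC065, a change of −4.02 ± 0.09 as deposited and −5.44 ± 0.21 per cell. Next came OSGIN1, induced by oxidative stress (24.3 to 25.3 FPKM down to 1.15 to 1.98), PIK3R1, the regulatory subunit of PI3K (8.0 to 8.5 down to 0.263 to 0.444), and the ephrin EFNB2 (12.6 to 14.2 down to 0.720 to 0.945). EGLN2, a prolyl hydroxylase of HIF, fell from 19.1 to 22.1 FPKM to values that spread widely, 0.502, 4.45, and 1.29. Behind MEPCE came FAM83G (−4.75 per cell), GCLC, the rate-limiting enzyme of glutathione synthesis (−4.70), AXIN1 (−4.69), and the Golgi protein GOLPH3 (−4.68). No treated library of these 10 genes overlapped a DMSO library, as the choice of the genes required.

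Abundant transcripts of housekeeping function gained share and were lower per cell. Over all tested genes 38.8% rose and 34.6% fell as deposited, and 90.2% fell per cell. Of 83 cytosolic ribosomal protein genes, 82 rose and 1 fell as deposited, around a median of 0.98, and 70 fell and 0 rose per cell, around −0.52. The 1 that fell as deposited was RPL7L1 (−0.51 ± 0.08), a paralog that acts in ribosome assembly. Nuclear-encoded respiratory chain genes moved alike, with 74 of 76 higher as deposited (median 0.88) and 71 lower per cell. Of 37 proteasome genes, 35 rose as deposited and 37 fell per cell, and of 18 collagen chains, 14 rose as deposited and 17 fell per cell, led as deposited by COL6A1 (1.00 ± 0.07). Of 24 heat shock genes, 15 rose and 4 fell as deposited, and DNAJB1, a cochaperone of HSP70, went from 47.8 to 48.2 FPKM down to 17.6 to 20.5 (−1.35 ± 0.11).

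Of 347 expressed ZNF genes, 210 fell and 53 rose as deposited, around a median of −0.69, and 326 fell and 4 rose per cell, around −2.04. For all tested genes, 34.6% fell and 38.8% rose as deposited, and 90.2% fell and 0.968% rose per cell. ZNF672 fell from 18.1 to 19.5 FPKM down to 1.56 to 2.40, by −3.23 ± 0.15 as deposited. ZNF724P went from 3.13, 4.89, and 3.25 FPKM to values listed at 0 in 2 libraries and 0.593 in the third. ZNF211 and ZNF121 went the other way and rose on both scales, by 1.31 ± 0.24 and 1.02 ± 0.27 per cell. Zinc finger genes share sequence with their neighbors, and how the counting divided shared reads is not given.

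Of 7 adrenergic transcription factors of NB cell identity above the filter, 6 fell and 0 rose as deposited and 7 fell per cell. All tested genes gave shares of 34.6%, 38.8%, and 90.2%. TBX2 fell from 73.3, 66.7, and 74.9 FPKM to 16.2, 13.3, and 14.7, by −2.28 ± 0.10 as deposited, and HAND2 from 44.1 to 48.3 FPKM down to 23.1 to 28.0, by −0.86 ± 0.08. Of 14 mesenchymal factors, 9 fell and 4 rose as deposited and 14 fell per cell. TWIST1 fell by −1.97 ± 0.13, whereas SNAI2, or SLUG, rose from 7.11, 8.23, and 6.97 FPKM to 15.8, 15.8, and 15.1, by 1.06 ± 0.12 as deposited. The change of SNAI2 per cell, −0.43 ± 0.20, passed with all libraries and was lost without DMSO library 0 or 1 or CYC065 library 1 or 2 (adjusted p up to 0.26), in the fit of the 6 libraries alone (0.0639), with a pseudocount of 1 (0.0609), with no filter (0.073), and with the sum of the spike-ins (0.054).

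**Figure D4:**
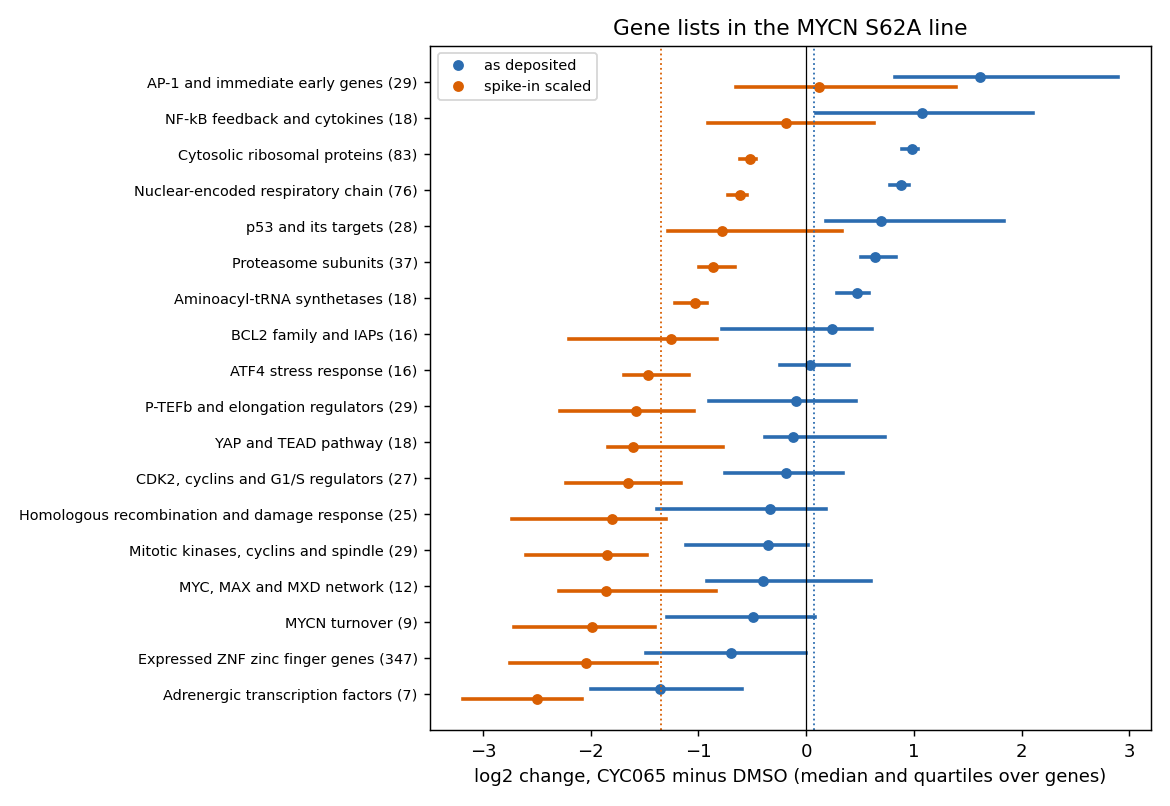
Median (point) and quartiles (bar) of the log2 change, CYC065 minus DMSO, over the tested genes of 18 lists, with the number of genes in parentheses. Blue is as deposited and orange is spike-in scaled, and the dotted lines are the medians of all 11575 tested genes, 0.07 and −1.35. Immediate early genes lie highest on both scales, and ZNF genes and adrenergic factors lowest.

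Small and short RNAs gave the largest numbers and the widest spread. MIR663A was listed at 263 to 522 FPKM in DMSO and 36491 to 66114 in CYC065. Its host transcript MIR663AHG was at 0.323 FPKM in 1 DMSO library and listed at 0 in 2, and at 35.6, 31.2, and 31.0 in CYC065. MIR25 was listed at 0 in every DMSO library and at 406, 1054, and 752 FPKM in CYC065. Poly(A) selection does not capture mature miRNAs, and which RNAs these rows hold was not tested. The single-exon gene FAM71A was listed at 0, 0, and 0.0503 FPKM in DMSO and at 16.2, 12.8, and 12.6 in CYC065. Among 161 snoRNA and scaRNA genes above the filter, 18 rose and 1 fell as deposited and 142 did not pass. As deposited, 38.8% of all tested genes rose and 34.6% fell. Of 44 clustered histone genes, whose main transcripts lack a poly(A) tail, 24 rose and 0 fell as deposited. Per cell 2 of them rose and 7 fell, beside 0.968% and 90.2% of all tested genes. HIST1H3B was listed at 0 in the 3 DMSO libraries and at 8.83, 8.08, and 5.18 FPKM in CYC065. Genes at 0 in DMSO, such as HIST1H3B and MIR25, met the filter through treated libraries or other lines. The counts of risers here are therefore partly set by the filter.

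Changes went with gene length and level. When the 10662 protein-coding genes were split into 5 equal bins by genomic span, the median change as deposited was 0.34 in the shortest bin, then 0.13, 0.09, and −0.05, and −0.13 in the longest. The shortest bin held 46 of the genes that rose per cell and the longest 4. Genes of 1 exon had a median of 0.28, those of 2 to 5 exons 0.20, and those of 6 or more exons 0.00. By the mean level in DMSO, the medians were 0.00 in the lowest of 5 bins of the tested genes, then −0.37, −0.16, and 0.14, and 0.61 in the highest, where 73.7% rose and 14.3% fell as deposited. The DMSO level is also part of the change, so its relation to the change is a description only.

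The response was then compared with the mean response of the WT, T58A, and T58A S62A lines, to see where the single S62A mutant differed. As deposited, the response was higher in the S62A line for 427 genes, 3.69% of those tested, and lower for 434, 3.75%. On the spike-in scale the same test called 0 genes higher and 1 lower, with 130 and 578 at an unadjusted p under 0.05, while the median SE of the difference was 0.135 as deposited and 0.240 scaled. The differences below are therefore differences in share of the library unless stated.

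Of the 18 tested NF-kB genes, 6 had a lower response in the S62A line and 0 a higher one, beside 3.75% and 3.69% of all tested genes. The 6 include TNF, which met the filter through other lines, so the count is partly set by that filter. CXCL8 changed by 2.95 in the S62A line and by 3.58 in WT, 3.11 in T58A, and 4.49 in T58A S62A, a difference of −0.78 ± 0.17. CXCL2 changed by 2.13 in S62A and by 3.02, 3.61, and 3.58 in the same lines, a difference of −1.27 ± 0.28. NFKB1 (−0.44 ± 0.07), NFKBIA (−0.29 ± 0.06), and TNFAIP3 (−0.85 ± 0.23) also passed, and TNFAIP3 was lost without S62A DMSO library 0 or 2 or CYC065 library 1 or 2 (adjusted p up to 0.11) and with a pseudocount of 0.01. Beside these cytokine genes, TNFRSF1A itself fell more in S62A, with a difference of −0.45 ± 0.11. GDF15 rose less, with a difference of −0.64 ± 0.11.

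The sixth NF-kB gene, and the 1 gene called on the spike-in scale, was TNF, the cytokine bound by TNFRSF1A (chromosome 6, 31543342 to 31546113, plus strand). In the S62A line it was at 0.0555, 0.0927, and 0 FPKM in DMSO and at 1.08, 0.439, and 0.522 in CYC065. With CYC065 it was at 1.85 to 2.74 FPKM in the WT line, 5.82 to 8.01 in T58A, and 3.42 to 7.71 in T58A S62A, each above all treated S62A libraries, and at most 0.0982 in the DMSO libraries of those lines. The difference in response was −2.78 ± 0.43 as deposited (adjusted p = 0.000299, and also past the threshold with no filter) and −3.35 ± 0.57 per cell (adjusted p = 0.0387). Both S62A groups averaged under 1 FPKM, so TNF met the filter through treated libraries of other lines, where it is high, and its place among the tested genes is no independent support for the difference. Within the S62A line TNF rose as deposited (2.35 ± 0.37) and per cell (1.05, adjusted p = 0.0481), the latter lost without DMSO library 0 or 2 or CYC065 library 0 (adjusted p up to 0.195), with the spike-ins of at least 50 FPKM (0.173) or their sum (0.067), and with a pseudocount of 1, where it was 0.20 (0.358).

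Of 16 ATF4 stress response genes, 7 had a higher response in S62A than the mean of the other lines and 0 a lower one, and of 18 aminoacyl-tRNA synthetases 8 and 0, beside 3.69% and 3.75% of all tested genes. The median change of the ATF4 list was 0.03 in S62A, 0.04 in WT, 0.13 in T58A S62A, and −0.37 in T58A, so the S62A median was not above that of WT or the double mutant. For the synthetases it was 0.47 in S62A, 0.42 in WT, 0.29 in T58A S62A, and 0.17 in T58A. ASNS, asparagine synthetase, changed by 0.84 in S62A and by 0.57 in WT, −0.65 in T58A, and 0.13 in T58A S62A, a difference of 0.82 ± 0.08. CHAC1, which degrades glutathione, changed by −0.23, −1.29, −3.15, and 0.04, a difference of 1.24 ± 0.24. The T58A line had the lowest response of both and the highest DMSO levels of the 4 lines. Its DMSO libraries held 42.5 to 47.5 FPKM of ASNS and 7.27 to 9.06 of CHAC1. In S62A DMSO the levels were 30.8 to 32.2 and 1.82 to 2.80. The part of the DMSO level in these differences was not tested. GARS changed by 0.39 in S62A, 0.41 in WT, −0.17 in T58A, and 0.11 in T58A S62A, so that S62A lay beside WT. The differences of WARS (0.28 ± 0.06), PHGDH of serine synthesis (0.36 ± 0.06), TRIB3 (0.52 ± 0.14), and ATF4 itself (0.26 ± 0.08) passed. TRIB3 was lost without S62A DMSO library 0 or 1 or CYC065 library 0 or 1 (adjusted p up to 0.108), and ATF4 in 13 of the 24 fits without 1 library of the 4 lines (adjusted p up to 0.153, without S62A CYC065 library 2) and with no filter.

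Of 29 immediate early genes, 7 had a higher response in S62A and 0 a lower one, beside 3.69% and 3.75% of all tested genes. Their median change was 1.62 in S62A, 1.15 in WT, 1.26 in T58A, and 1.52 in T58A S62A. IER5L changed by 2.16 in S62A and by 1.37, 1.5, and 1.47 in WT, T58A, and T58A S62A, and KLF10 by 1.94 against 1.57, 0.97, and 1.85. CYR61 (0.35 ± 0.06) and ANKRD1 (0.49 ± 0.09) of the YAP and TEAD list also rose more, and LATS2 fell more (−0.65 ± 0.13). SNAI2 changed by 1.06 in S62A and by 0.24, −0.46, and 0.18 in the other 3 lines, and HAND2 fell less in S62A (difference 0.58 ± 0.09).

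Among single genes the largest lower responses in S62A included EGLN2 (−2.11 ± 0.47) and SIMC1 (−1.05 ± 0.27). EGLN2 changed by −3.76 in S62A and by −1.82, −1.33, and −1.80 in WT, T58A, and T58A S62A, with treated levels of 0.502 to 4.45 FPKM in S62A and 4.61 to 11 in the other lines. SIMC1 was lost without S62A DMSO library 1 or CYC065 library 2 (adjusted p up to 0.0751). CDK12 (−0.56 ± 0.09), EFNB2 (−0.99 ± 0.13), GINS1 (−0.86 ± 0.12), and GSK3B (−0.41 ± 0.12) fell more in S62A, the last lost in 16 of the 24 fits without 1 library (adjusted p up to 0.129, without S62A CYC065 library 1) and with no filter. The largest higher responses included SERTAD3 (1.2 ± 0.24), the clock repressor NR1D1 (1.12 ± 0.25), and CCDC71 (1.12 ± 0.20), whose change was negative in all 4 lines and smallest in S62A. For MYC the difference, −0.33 ± 0.20, did not pass, and for MYCN it was −0.19 ± 0.19.

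**Figure D5:**
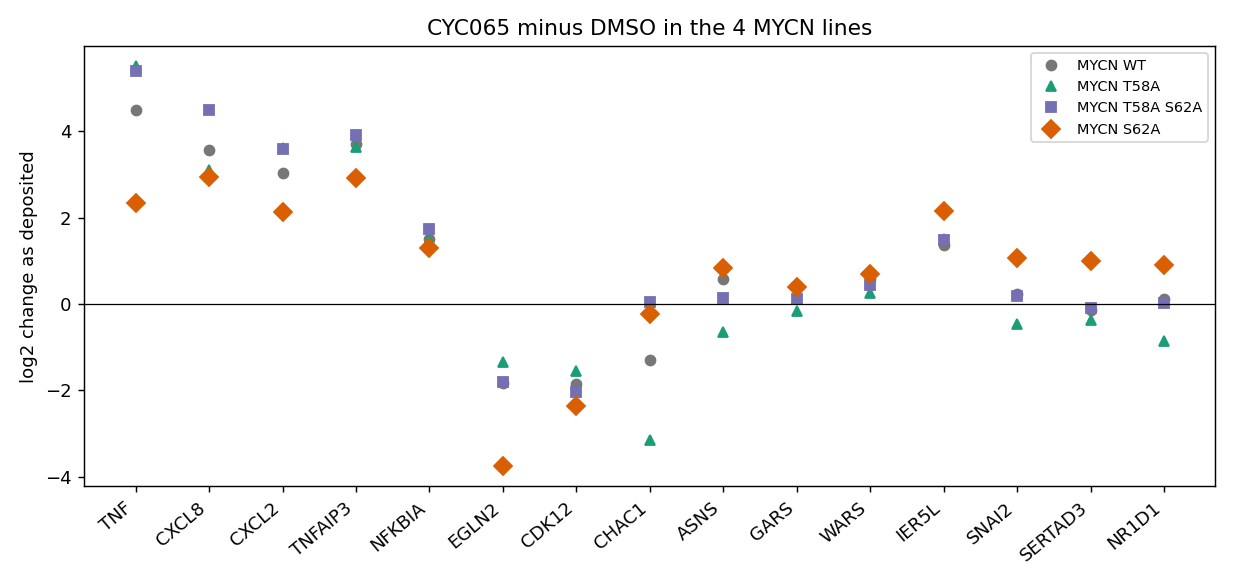
log2 change as deposited, CYC065 minus DMSO, of 15 genes in the 4 MYCN lines, each from 3 libraries a treatment. TNF, CXCL2, and EGLN2 are lowest in the S62A line (orange), and IER5L, SNAI2, SERTAD3, and NR1D1 are highest there. For CHAC1 and ASNS, the T58A line lies lowest.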

How the data were processed

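RNA-Seq of SH-EP lines with MYCN WT, T58A, S62A, or T58A S62A and of parental SH-EP was used, in 10 groups of 3 libraries. According to the methods, ERCC RNA was added in proportion to cell number ahead of poly(A) selection, and the authors aligned strand-specific reads to GRCh37 (hg19) with HISAT2, and computed the deposited FPKM with Cufflinks. The gene annotation is not given in the sources used here. The deposited FPKM are not scaled to the spike-ins, and 0 columns belonged to other samples. Columns name line and treatment but carry numbers (0 to 2) that no source ties to those of the labels (1 to 3), so libraries are unnumbered replicates, cited by the column's number.

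For the spike-in scale, libraries were rescaled to bring the median log2 value of the 55 spike-ins averaging 1 FPKM or more to the series mean. log2(FPKM + 0.1) of the 11575 genes averaging 1 FPKM or more was fitted with limma 3.58.1 in R 4.3.3 (lmFit, then eBayes with trend and without robust) in 1 fit over the 10 groups, with an adjusted p under 0.05 as threshold. This scale understates the change of low genes. The difference of responses is the S62A change minus the mean change of the 3 other MYCN lines. Relative depth was estimated from the lowest values, since read counts are unknown, and a value of 0 can be a failed estimate. Positions are from GENCODE 44 lifted to GRCh37, which matched 97.8% of the tested genes. The scripts were tested on simulated data.

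Genes were named by rule: the 10 largest rises and falls per cell with groups that do not overlap and at least 5 FPKM, the 3 largest rises and falls of each list, the 10 most abundant genes higher on both scales, the 5 largest differences of response in each direction, and MYCN, MYC, CDK9, CDK2, and MCL1. Not all are printed. Some genes are left out of the text. TNF, FOS, HEXIM1, CCNT1, HAND2, GATA2, MDM2, ATF4, GARS, NFKBIA, NFKB1, CHAC1, IER5L, KLF10, CFLAR, XIAP, and BCL2L1, the promoters shown, and members of lists chosen for their difference of response were picked after their values were seen. The comparison and the gene lists were chosen with earlier results of these data known. The alternatives tried were other pseudocounts (1 and 0.01), filters (none and 5 FPKM), and scalings, a fit of the 6 libraries alone, a 1.5-fold minimum, and leaving out each library.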

Additional observations from a re-analysis of the deposited data

Results flagged for a closer look

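The response to CYC065 as deposited differed between the S62A line and the mean of the 3 other MYCN lines by limma's test of the difference itself for 861 genes, 427 with a higher and 434 with a lower response. On the spike-in scale 1 gene passed. For that gene, TNF, which met the filter on low values through other lines, the difference as deposited was −2.78 and the TNF levels per library are given above.

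Of the other genes named in the text, these had a lower response in S62A, with the difference in log2 after each name: EGLN2 −2.11, CXCL2 −1.27, SIMC1 −1.05, EFNB2 −0.99, GINS1 −0.86, TNFAIP3 −0.85, CXCL8 −0.78, LATS2 −0.65, GDF15 −0.64, CDK12 −0.56, TNFRSF1A −0.45, NFKB1 −0.44, GSK3B −0.41, POLR2A −0.37, and NFKBIA −0.29. These had a higher response: CHAC1 1.24, SERTAD3 1.2, NR1D1 1.12, CCDC71 1.12, SNAI2 1.07, ASNS 0.82, IER5L 0.71, HAND2 0.58, TRIB3 0.52, ANKRD1 0.49, KLF10 0.48, PHGDH 0.36, CYR61 0.35, WARS 0.28, GARS 0.28, and ATF4 0.26. All of these genes kept their sign on the spike-in scale, where none of them passed. The scaling multiplies each library by 1 factor and moves most genes alike, so the kept sign is no separate support. Each difference is from the mean of 3 lines, so a single line can match or pass S62A. CHAC1 changed by −0.23 in S62A and by 0.04 in T58A S62A, and GARS by 0.39 in S62A and by 0.41 in WT. With 3 libraries a group, no group was examined for a sample that stands apart.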

How the results depend on the processing

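Of the changes of 99 genes per cell, 62 kept their direction and call under every alternative in which the gene was tested. So did 93 of 99 changes as deposited and 1 of 32 differences of response. The other differences did not pass on the spike-in scale. Genes that averaged under 5 FPKM were not tested with the filter at 5 FPKM, so that filter could not change their count as kept. The median change per cell was −1.06 with a pseudocount of 1, −0.89 with no filter, and −1.63 with the spike-ins of at least 50 FPKM, which left 69 genes higher. Centring each library on its median in place of the spike-ins gave 5310 genes higher and 3354 lower, and turned these changes from negative to positive: MYCN 0.38, CDK9 0.13 (also against the deposited value), CDK2 0.45, MCL1 0.69, FOS 1.61, ANKRD1 1.43, MDM2 1.32, HEXIM1 0.21, CCNT1 1.37, CCNK 1.06, ZBTB17 1.61, SNAI2 1.23, SERTAD3 1.17, NR1D1 1.06, ASNS 1.01, PHGDH 0.93, WARS 0.87, NFKBIA 1.45, NFKB1 1.04, GARS 0.56, COL6A1 1.17, and FANCD2 0.61. With the spike-ins of at least 50 FPKM the changes of PMAIP1 (−0.23), CDKN1A (−0.0075), EAF1 (−0.21), and MXD1 (−0.17) became negative. As deposited, 2826 genes rose with a minimum of 1.5-fold, 2431 fell with the filter at 5 FPKM, and the median was 0.059 with a pseudocount of 1, 0.00 with no filter, and 0.23 at 5 FPKM. The differences of response numbered 124 higher and 99 lower at 1.5-fold and, on the spike-in scale, 0 and 1.

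Without 1 library, the difference of response gave 268 to 480 genes higher and 285 to 495 lower, and the deposited median was 0.0626 to 0.0699. Changes that crossed 0 without 1 library were, per cell, FOS (−0.195 to 0.0302), MXD1 (−0.0181 to 0.241), and ZBTB17 (−0.155 to 0.162), none of which passed, and, as deposited, HEXIM1 (−0.0520 to 0.0906). No paired analysis was possible because the columns are numbered 0 to 2 and the labels 1 to 3, and nothing says which column number is which replicate. The read depth is unknown, so no counting error can be given.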
